A study of Mus musculus with 30 samples.

Results

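The clustered protocadherins were followed in 2 tissues of a mouse experiment in which endogenous neural precursor cells (eNPCs) of the subventricular zone (SVZ) were ablated. Members were taken by gene symbol alone: Pcdha and Pcdhac genes formed the alpha cluster, Pcdhb genes the beta cluster, and Pcdhga, Pcdhgb and Pcdhgc genes the gamma cluster. This gave 57 genes, 13 alpha, 22 beta and 22 gamma, among 53278 gene symbols in the SVZ table and 50508 in the striatum table. The paper used adult mice of both sexes, which it lists as C57Bl/6 and transgenic mice. The strain of the NestinTK line and of its littermates is not stated in the sources used here. The ablated group, NestinTK+GCV+, carried viral thymidine kinase under the second-intron enhancer of the rat Nestin gene and received ganciclovir (GCV), which kills dividing cells that express the kinase, through an osmotic minipump for several weeks; 5 mice were profiled. The control groups were wild-type littermates given GCV (NestinTK-GCV+, 3 mice), wild-type littermates given saline (NestinTK-PBS+, 3 mice) and transgenic mice given saline (NestinTK+PBS+, 4 mice). One SVZ and one striatum library came from each of the 15 mice, which are called A1 to A5, G1 to G3, P1 to P3 and T1 to T4 in the order of these groups. The kinase acts in any dividing cell that uses this enhancer, so the model is not restricted to one stage of the SVZ lineage.

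Clustered protocadherins are cadherin-type adhesion proteins of the neuronal surface. In the alpha and gamma clusters each gene has its own variable first exon with its own promoter, and this exon is spliced to constant exons shared by the whole cluster; beta genes have no such constant part. A neuron is known to transcribe a small, partly random set of variable exons, chosen through CTCF, cohesin and DNA methylation at the promoters, and the resulting combination lets a neuron recognise its own branches by homophilic binding. The C-type genes Pcdhac1, Pcdhac2, Pcdhgc3, Pcdhgc4 and Pcdhgc5 stand at the ends of the alpha and gamma clusters and are regulated differently from the others, several of them being used in a constitutive way.

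In the GENCODE vM21 annotation of GRCm38 the alpha cluster lay at chr18:36930184-37187661, the beta cluster at chr18:37264938-37524479 and the gamma cluster at chr18:37661793-37841873, all on the plus strand. The last 300 exon bases were shared with another gene in all 14 annotated alpha genes (2 of them named Pcdha11) and in all 22 gamma genes, whereas they belonged to one gene alone in 21 of 22 beta genes. Each gamma gene shared exon sequence with 25 other genes, and 20 beta genes shared none. The exon bases left to a gene alone on its strand had a median of 2479.5 per alpha gene, 3714 per beta gene and 2629.5 per gamma gene. A read from a constant exon has no single gene to go to. This touches the tissues differently, because the SVZ libraries were made along whole transcripts (SMART-Seq v4) and the striatum libraries from 3′ ends (QuantSeq).

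Libraries held 8360810 to 21056005 counts in the SVZ (median 12120182) and 2626962 to 4693441 in the striatum (median 3755752). Depth was not even between the groups, and the lowest totals were those of ablated mice, A5 in the SVZ and A3 in the striatum. Every ablated SVZ library held fewer counts than all controls but G2 and P3. Every ablated striatum library held fewer than all controls but T2. Scaled CPM allow for depth, but a low count is more readily 0 in a shallow library, and this part was not tested. In the SVZ the 12 neuroblast markers summed to 289 to 515 scaled CPM (counts relative to the library total after scaling by TMM factors) in NestinTK+GCV+ mice and to 421 to 950 in the 10 controls, and the 8 dividing-cell markers to 8.67 to 33.7 and 35.5 to 155. The SVZ samples are labelled as neural precursor cells although the protocol describes removed tissue, and the 10 medium spiny neuron markers summed to 4263 to 13525 CPM in them. Libraries P1, P2 and T1 of the SVZ stood apart in choroid plexus markers, with Ttr alone at 4.49% to 9.88% of all counts. Library T4 of the striatum stood apart too: its medium spiny neuron markers summed to 4946 CPM against 9425 to 13073 in the other 14 mice, and its choroid plexus and oligodendrocyte markers were the highest of 15.

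A gene was tested in a tissue when it passed 1 CPM in at least 3 libraries. In the SVZ 49 of 57 members passed, 9 of 13 alpha, 20 of 22 beta and 20 of 22 gamma genes; those that failed were Pcdha2, Pcdha4, Pcdha8, Pcdhac1, Pcdhb1, Pcdhb2, Pcdhgb5 and Pcdhga10. In the striatum 41 passed, 3 of 13 alpha, 21 of 22 beta and 17 of 22 gamma genes; those that failed were all alpha genes but Pcdha5, Pcdha9 and Pcdha11, and Pcdhb1, Pcdhgb1, Pcdhgb2, Pcdhgb4, Pcdhgc4 and Pcdhgc5. A member with low counts passes when a few libraries are high, so the tested members are not a neutral selection of the family.

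Beta genes held 56.5% of the member counts in the SVZ (28101 counts over 15 libraries), gamma genes 35.0% (17415) and alpha genes 8.53% (4242). In the striatum beta genes held 71.2% (6030 counts), gamma genes 26.6% (2253) and alpha genes 2.23% (189). Reads in the shared constant exons of alpha and gamma genes have no single gene to go to, and the kits differed. These shares thus describe assigned counts and do not measure the expression of a cluster or a difference between tissues. The striatal alpha cluster was thus measured by 5 to 27 counts per library and the striatal beta cluster by 296 to 520. Pcdha4 had no count in any of the 30 libraries; the annotated gene Gm42416, also at 0 throughout, overlaps it on the same strand, and 494 of its 5768 exon bases belong to it alone on that strand.

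Pcdhga10 was at 0 in one tissue and among the leading genes in the other. It had 0 counts in all 15 SVZ libraries and 6 to 66 counts in every striatum library, where it was the third highest gamma gene. On its own strand Pcdhga10 has 2613 exon bases that no other gene shares, but the antisense gene Gm26672 covers all of them, so that 0 remain when strand is ignored. Of 16 protein-coding genes with at least 1000 bases of their own on their strand and none without strand, 13 (81.25%) had no count in the SVZ, against 12.5% of the 19396 genes that keep at least 1000 bases either way. In the striatum 6 of the 16 (37.5%) had no count, against 20.6% of 19261. Whether reads were counted by strand is not given in the sources used here, and the part of this in the SVZ value was not tested.

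In the SVZ levels could be compared between genes per kilobase of exon that belonged to one gene, ignoring strand. Pcdhgc5 was the highest member at 9.45 ± 4.62 scaled CPM per kb (SD, n = 15), followed by Pcdhb20 at 4.59 ± 3.17, Pcdhb7 at 4.20 ± 3.39, Pcdhga4 at 3.69 ± 4.92, Pcdhb19 at 3.47 ± 2.22 and Pcdhac2 at 3.42 ± 3.24. The step from Pcdhgc5 to Pcdhb20 was about as large as the SD of Pcdhgc5, and from Pcdhb20 down to Pcdhac2 neighbours differed by much less than their SD. Pcdhac2 and Pcdhgc5, both C-type genes, headed the alpha and the gamma cluster. The other C-type genes were at 2.90 ± 2.62 for Pcdhgc3, 1.00 ± 3.31 for Pcdhac1 and 0.413 ± 0.492 for Pcdhgc4. Pcdhb1 and Pcdhb2 had no count in 11 and 9 of the 15 libraries.

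**Figure D1:**
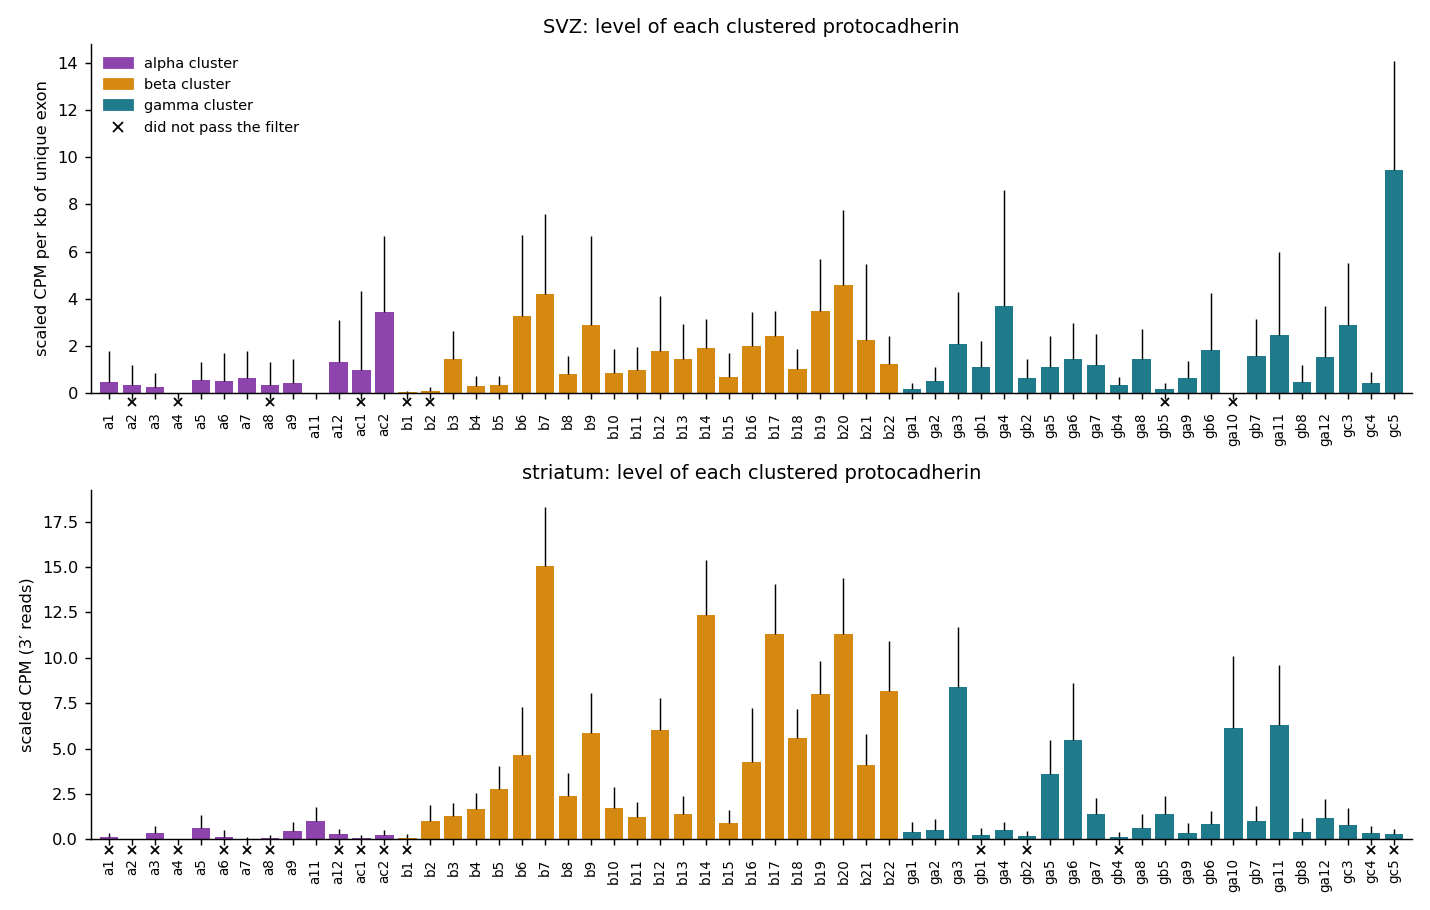
Level of each of the 57 members, in order along the chromosome: scaled CPM per kb of unique exon in the SVZ (upper) and scaled CPM in the 3′ striatum libraries (lower), as mean (bar) and 1 SD upwards (line) over 15 libraries; crosses mark members that did not pass the filter. Pcdhgc5 was the highest in the SVZ at 9.45 and Pcdhb7 in the striatum at 15.0; in the SVZ Pcdha11 has no bar because 2 annotated genes share its name, and Pcdhga10 none because no base is its own.

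In the striatum libraries, which are not scaled by length, Pcdhb7 led at 15.0 ± 3.26 scaled CPM (SD, n = 15), followed by Pcdhb14 at 12.3 ± 3.03, Pcdhb20 at 11.3 ± 3.07 and Pcdhb17 at 11.3 ± 2.75; these neighbours differed by less than their SD. Among gamma genes Pcdhga3 was at 8.41 ± 3.30, Pcdhga11 at 6.31 ± 3.28 and Pcdhga10 at 6.14 ± 3.98. Of the alpha genes Pcdha11 alone was counted in every library, with 1 to 12 counts. Pcdhac2 had 0 to 4 counts and Pcdhgc5 0 to 3, so both leading C-type genes of the SVZ were close to 0 in the striatum libraries. The order of mean CPM over the 22 beta genes was similar in both tissues (Spearman's rho 0.774), while rho was 0.194 over the 22 gamma and 0.385 over the 13 alpha genes; these describe the genes, and the tissues differed in kit and depth.

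Which member led its cluster varied from library to library. Pcdhgc5 held the most gamma counts in 14 of 15 SVZ libraries, with a median share of 38.5% for the leading gene; in T3 Pcdhga4 led. Pcdhac2 held the most alpha counts in 10 of 15 libraries, and the leading alpha gene took 29.2% to 92.8%. Among beta genes 6 different genes led in the SVZ, Pcdhb19 in 8 libraries, and the leading gene took 15.6% to 34.1%. In the striatum Pcdhb7 led the beta cluster in 10 of 15 libraries and the leading gene took at most 18.6%.

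Single genes swung over a wide range within a group. Pcdhac1 had 270 SVZ counts in A3 and 0 or 1 in the other 4 ablated mice. Pcdhb19 ran from 75 to 499 counts in ablated mice and from 25 (P3) to 725 (G1) in controls. Pcdha12 had 164 counts in G3 and 105 in P1 but 0 in A3 and T4. The coefficient of variation over the 15 SVZ libraries had a median of 178% over the tested alpha genes, 98.2% over beta and 112% over gamma genes, and in the striatum of 112%, 44.2% and 81.8%. In edgeR's fit the members had a median biological coefficient of variation of 1.29 in the SVZ, against 0.933 over the 11658 genes in their range of levels. In the striatum it was 0.536, against 0.437 over 7752 genes. This range runs from the lowest to the highest member, so its genes were not matched to the members level by level.

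Summed over a cluster the values were steadier, above all for the beta genes of the striatum. There the sum was 111 ± 8.26 scaled CPM (SD, n = 15), from 98.6 to 127, a coefficient of variation of 7.43% where counting error alone gives 4.99%. The striatal gamma sum varied by 34.8% (counting error 8.16%) and the striatal alpha sum by 44.9% (counting error 28.2%). In the SVZ the sums varied by 29.7% for beta, 40.2% for gamma and 77.5% for alpha genes, with counting errors of 2.31%, 2.93% and 5.95%.

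The main comparison set the 5 NestinTK+GCV+ mice against the 10 controls and asks which genes differ when SVZ eNPCs are lost. In bulk tissue fewer cells of a type and less RNA per cell cannot be told apart. In the SVZ the alpha sum was 13.1, 33.3, 81.0, 20.2 and 53.0 scaled CPM in A1 to A5 and 4.54 to 33.3 CPM in controls (median 18.7). A3 and A5 lay well above every control, A2 just above the highest control, and A1 and A4 inside the control range. The beta sum was 191 ± 41.2 CPM in ablated mice (SD, n = 5) and 152 ± 48.9 in controls (SD, n = 10), and the gamma sum 132 ± 38.7 and 88.1 ± 35.6. The log2 ratio of the ablated to the control mean was 1.15 for alpha, 0.33 for beta and 0.59 for gamma genes; the groups overlapped in each cluster, and a sum over the members was given no test. Without A3 the alpha ratio was 0.72, and without A5 the beta ratio was 0.21. Pan-neuronal markers summed to 3591 to 4863 CPM in ablated mice and 2516 to 6689 in controls, neuroblast and dividing-cell markers were lower in ablated mice as given above, and the part of these markers in the ratios was not tested.

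**Figure D2:**
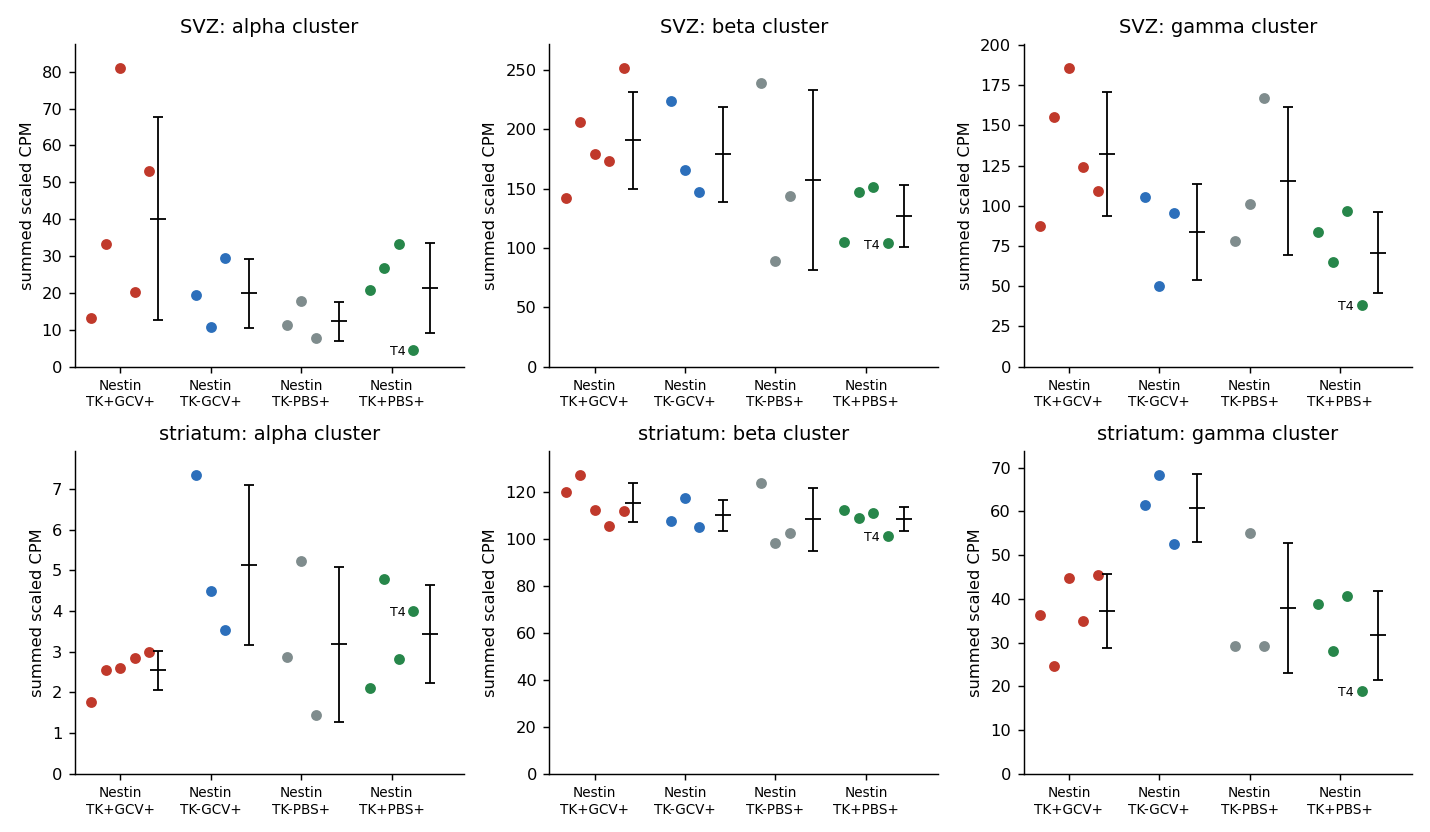
Summed scaled CPM of the alpha, beta and gamma genes in each library (points) by group, with mean ± SD in black beside the points and axes from 0, for the SVZ (upper) and striatum (lower). The striatal beta sums lie between 98.6 and 127 in all 15 mice, and T4 (labelled) has the lowest gamma sum in both tissues.

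In the striatum the alpha sum was 2.54 ± 0.474 CPM in ablated mice (SD, n = 5) and 3.87 ± 1.71 in controls (SD, n = 10), a log2 ratio of -0.60. The beta sum was 116 ± 8.32 and 109 ± 7.71 CPM, a log2 ratio of 0.084. The gamma sum was 37.2 ± 8.51 and 42.3 ± 16.4 CPM, a log2 ratio of -0.18. Without A2 the beta ratio was 0.047 and the gamma ratio -0.066, and the gamma ratio was -0.11 without G1 and -0.081 without G2. The controls were not alike: the NestinTK-GCV+ mice had gamma sums of 61.5, 68.3 and 52.7 CPM, while P1 and P3 were at 29.3 and P2 at 55.2. T1 to T4 were at 38.8, 28.0, 40.7 and 19.0 CPM, with T1 and T3 above the ablated mean and T2 and T4 below it. Against NestinTK-GCV+ mice alone the log2 ratio of the striatal gamma sum was -0.71. A ratio against NestinTK+PBS+ mice alone was not run, so the sign of this ratio is not settled across control groups. Oligodendrocyte markers summed to 2276 to 2926 CPM in the ablated striata and 2552 to 6253 in controls; their part was not tested.

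Of the 49 members tested in the SVZ, 34 had a higher and 15 a lower fitted level in ablated mice, with a median log2 fold change of 0.47, where all 16375 genes tested had a median of -0.027 and 7875 of them were higher. By cluster the medians were 2.21 over 9 alpha, 0.36 over 20 beta and 0.13 over 20 gamma genes. The filter admitted Pcdha1 through A1, A3 and T1 alone, and Pcdha3 through A1, A5 and T3. It admitted Pcdha6 through A2, A3 and G3, Pcdha9 through A2, A3 and T3, and Pcdha5 through controls alone. The alpha median thus depends on which genes a few high libraries admitted, and it is given as a description. Genes were called at an unadjusted p of at most 0.01 and at least 2-fold: 1 member was called, against 1.59% of all genes. No member reached an adjusted p of 0.05 in edgeR's quasi-likelihood test, where 0.00611% of genes did, and 3 members had an unadjusted p under 0.05, against 9.81% of all genes. DESeq2 gave 1 called member as well, and its share over all genes is not given here. In no member did the 5 ablated libraries lie wholly outside the 10 controls, which they did in 0.256% of genes. A single call among 49 members is close to the share over all genes.

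The called member was Pcdhga12, the last A-type gene of the gamma cluster. Its SVZ counts were 51, 59, 271, 158 and 95 in A1 to A5, 19, 8 and 16 in the NestinTK-GCV+ mice, 9, 11 and 71 in the NestinTK-PBS+ mice and 15, 8, 68 and 6 in the NestinTK+PBS+ mice. After scaling, ablated libraries ran from 6.12 to 33.2 CPM; every one was above 9 of the 10 controls, and P3 at 7.82 CPM lay above A1 alone. The mean was 15.2 ± 10.8 CPM in ablated mice and 1.86 ± 2.33 in controls, a log2 fold change of 3.04 ± 0.75 (SE) with an adjusted p of 0.318 (edgeR's quasi-likelihood test, Benjamini-Hochberg adjustment). It was called without any one of the 15 libraries, at 2.53 (without A3) to 3.66 (without P3), and DESeq2 gave an adjusted p of 0.00931, the lowest over its alternatives, which ran up to 0.999. In the striatum of the same mice Pcdhga12 had 0 to 8 counts in ablated mice and 0 to 11 in controls, a log2 fold change of -0.32 ± 0.82. Gm26672 overlaps part of Pcdhga12 on the other strand, leaving 4123 of 4545 unique bases when strand is ignored.

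The members next lowest in p in the SVZ were both alpha genes. Pcdha1 had 21, 0, 103, 0 and 3 counts in ablated mice, and in controls 20 in T1, 4 in P3, 1 in G1 and 0 in the other 7. Its log2 fold change was 3.88 ± 1.64 with an adjusted p of 0.440 in edgeR's quasi-likelihood test, and A1 and A3 held nearly all of its ablated counts. Pcdha5 had 1, 0, 3, 0 and 3 counts in ablated mice, and in controls 103 in P2, 68 in G3, 43 in T1, 34 in G1, 24 in T3 and at most 6 in the other 5. Its log2 fold change was -3.33 ± 1.58 with an adjusted p of 0.507 in the same test. Pcdha5 passed the filter only through control libraries, G1, G3, P2, T1 and T3. It was thus admitted by the group in which it was high, and its values are given as a description. The groups overlapped for both genes, and P2 and T1 are among the libraries high in Ttr.

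The 4 C-type genes tested in the SVZ were not called, and Pcdhac1 failed the filter there. Pcdhgc5 was at 55.2 ± 20.8 CPM in the ablated SVZ and 37.7 ± 20.0 in controls, a log2 fold change of 0.55 ± 0.34 with an adjusted p of 0.637 in edgeR's quasi-likelihood test. Pcdhac2 was at 16.5 ± 14.7 and 7.30 ± 4.70 CPM (1.17 ± 0.60, adjusted p 0.545), its highest library being A5 at 41.4 and its lowest P1 at 1.61 CPM. Pcdhgc3, which is found in many cell types, was at 5.61 ± 4.57 and 5.13 ± 5.10 CPM. Pcdhgc4, known for a role in neuronal survival, had a median of 7 counts per library and a log2 fold change of -1.23 ± 1.21.

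The most abundant beta genes of the SVZ differed by less than their spread. Pcdhb19 was at 26.9 ± 20.3 CPM in ablated mice and 23.7 ± 14.2 in controls, with a log2 fold change of 0.18 ± 0.51. Pcdhb14 was at 16.7 ± 13.7 and 16.8 ± 9.77 CPM, with a log2 fold change of -0.014 ± 0.57. Pcdhb20 was at 20.7 ± 13.4 and 14.1 ± 10.2 CPM, with a log2 fold change of 0.55 ± 0.57. Among gamma genes Pcdhga4 ran from 0.240 to 16.5 CPM in ablated mice and from 0.0699 (T4) to 23.0 CPM (P3) in controls, with a log2 fold change of -0.26 ± 1.10.

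**Figure D3:**
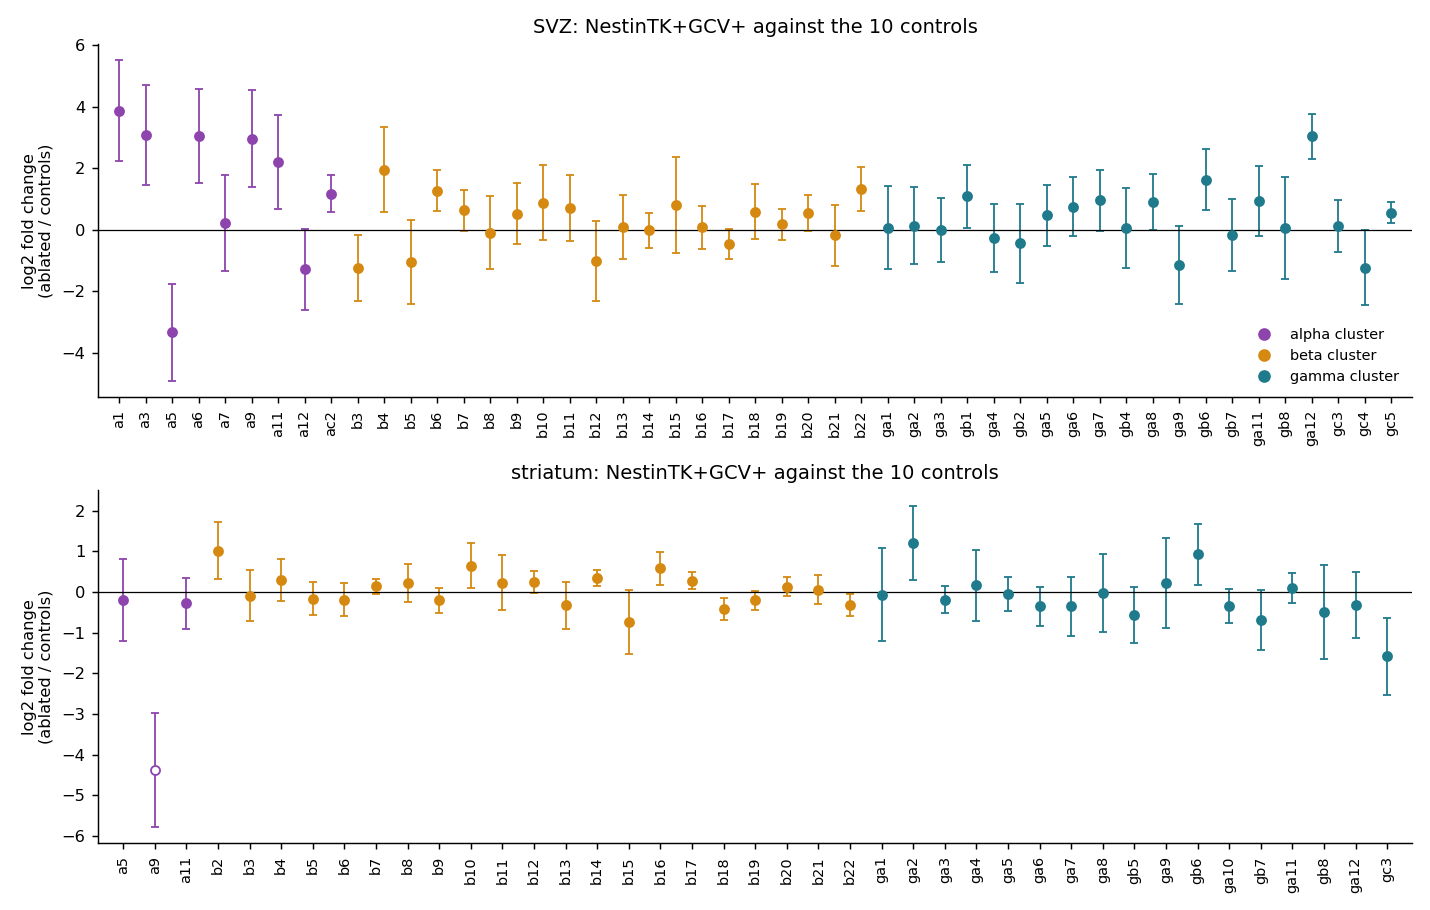
Log2 fold change of NestinTK+GCV+ mice over the 10 controls (point) with its SE (bar) for every member tested, 49 in the SVZ (upper) and 41 in the striatum (lower), in order along the chromosome and coloured by cluster. Pcdhga12 (3.04) is the called SVZ member, and the open point is Pcdha9 in the striatum, whose ablated libraries were all at 0, so that its fitted value is no estimate of size.

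Of the 41 members tested in the striatum, 17 had a higher and 24 a lower fitted level in ablated mice, with a median log2 fold change of -0.095 against 0.0037 over 15419 genes. By cluster 12 of 21 beta, 5 of 17 gamma and 0 of 3 alpha genes were higher. One member was called, where 0.694% of genes were. No member reached an adjusted p of 0.05 in edgeR's quasi-likelihood test, which 0.182% of genes did, and the called member alone had an unadjusted p under 0.05, against 10.5% of genes. No member's ablated libraries lay wholly outside the controls, which they did in 0.532% of genes.

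The called member was Pcdha9. It had 0 counts in all 5 ablated striata and 27 counts over the controls: 5, 3 and 4 in the NestinTK-GCV+ mice, 5, 5 and 0 in the NestinTK-PBS+ mice and 1, 2, 0 and 2 in the NestinTK+PBS+ mice. With a limit of 3 counts over the ablated group, or 0.202 CPM, the control mean of 0.687 CPM was at least 3.40-fold higher. Counts were present in 8 of 10 controls and absent in P3 and T3, so the groups touched at 0. The ablated striata were also shallower than every control but T2, as given above. The gene passed the filter only through control libraries, G1, P1 and P2, so the call was made on a member admitted by the group in which it was high and is given as a description. The adjusted p was 0.245 in edgeR's quasi-likelihood test, and no member was called with limma-voom, with the mouse number series as a covariate, with NestinTK+PBS+ mice as the only controls, with the filter at 8 libraries or without any one of A1, A4, A5, G1, P1 or P2. In the SVZ Pcdha9 had 3, 13, 82, 0 and 0 counts in the same ablated mice and 0 to 31 in controls, a log2 fold change of 2.96 ± 1.57.

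Beta genes of the striatum varied least. Pcdhb7 had 41 to 56 counts in ablated mice and 34 to 95 in controls, which scaled to 16.0 ± 2.06 and 14.5 ± 3.72 CPM, a log2 fold change of 0.14 ± 0.19. Pcdhb14, which had the second lowest p, was at 14.4 ± 3.70 CPM in ablated mice and 11.3 ± 2.12 in controls, a log2 fold change of 0.35 ± 0.20 with an adjusted p of 0.564 in edgeR's quasi-likelihood test; its lowest library was T4 at 6.67 CPM. Pcdhgc3 followed with 0, 0, 0, 1 and 4 counts in ablated mice and 0 to 15 in controls, highest in P2 (-1.58 ± 0.94, adjusted p 0.594); its log2 fold change was -3.23 without A5.

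**Figure D4:**
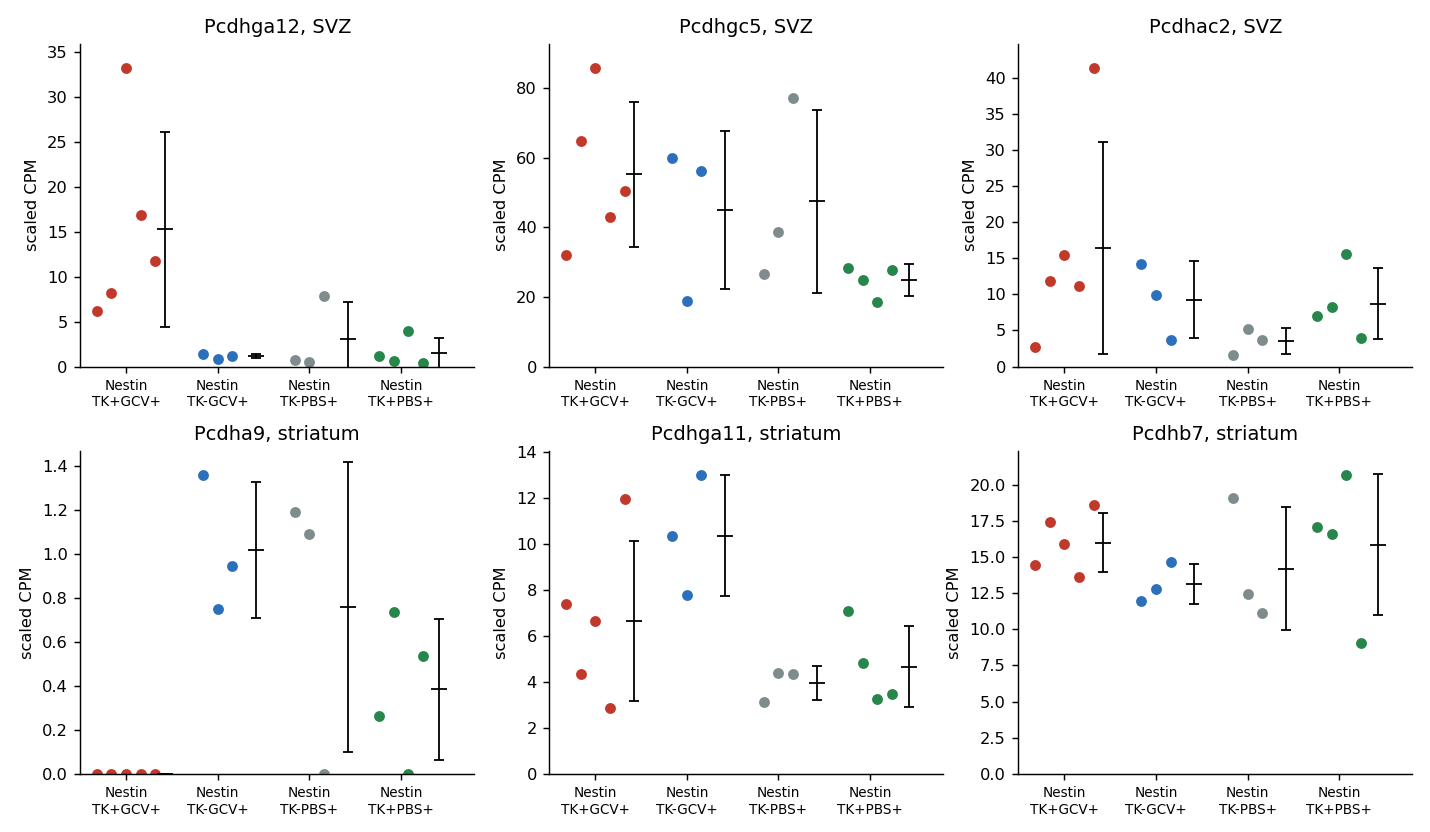
Scaled CPM of Pcdhga12, Pcdhgc5 and Pcdhac2 in the SVZ (upper) and of Pcdha9, Pcdhga11 and Pcdhb7 in the striatum (lower), 1 point per library by group, with mean ± SD in black (axes start at 0 and cut SD bars there). Pcdhga12 is above 9 of the 10 controls in all 5 NestinTK+GCV+ mice, Pcdha9 is at 0 in the same mice, and Pcdhgc5, Pcdhac2 and Pcdhb7 overlap between groups.

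The 4 groups allow contrasts of GCV and of the transgene, which share libraries with each other and with the main comparison. In both tissues every GCV library had a lower library number than any PBS library. GCV thus could not be told apart from library order, whose part was not tested. The main comparison carries this in part, since most controls received PBS. Mouse numbers fell in a lower and a higher series, with all NestinTK-PBS+ mice in the lower and all ablated mice in the higher. In the SVZ Pcdhga12 was the 1 member called for GCV against PBS in NestinTK+ mice, at 3.31 ± 1.09 (1.19% of genes called), and for NestinTK+ against NestinTK- under GCV, at 3.71 ± 1.26 (0.94% of genes). The first call was lost without A3, A4, T1, T2 or T4, and the second without A3, A4, A5, G1, G2, G3 or T1. Pcdhga12 was at -1.37 ± 1.21 for GCV against PBS in NestinTK- mice and at -0.97 ± 1.10 for the transgene under PBS. The difference of the GCV effect between genotypes was 4.68 ± 1.63 and was not called (adjusted p 0.942, edgeR's quasi-likelihood test). No member was called for this interaction, where 0.837% of genes were. In edgeR's quasi-likelihood test 3 members had an unadjusted p under 0.05, where 386 lower and 447 higher of 16375 genes did. DESeq2 called 3 members, and its share over all genes is not given here. The transgene under PBS called no member (0.195% of genes), and DESeq2 called 0. No member was under 0.05 unadjusted, where 156 lower and 285 higher of 16375 genes were.

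GCV against PBS in NestinTK- mice called 1 SVZ member, where 1.06% of genes were called. This was Pcdhb21, with 4, 0 and 36 counts in the GCV mice and 703, 61 and 49 in the PBS mice, a log2 fold change of -4.33 ± 1.47 with an adjusted p of 0.646 in edgeR's quasi-likelihood test. The 703 counts came from P1, one of the libraries high in Ttr, and without P1 the value was -2.03 and not called; the call was also lost with limma-voom and without A1, G1, G2, T2, T3 or T4. The last 300 exon bases of Pcdhb21 overlap Pcdhb22, the only beta pair that shares exon sequence.

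In the striatum GCV against PBS in NestinTK+ mice called Pcdhga2, where 1.35% of genes were called. It had 2, 3, 4, 1 and 3 counts in NestinTK+GCV+ mice and 0 in all 4 NestinTK+PBS+ mice, at least 4.51-fold higher against a limit of 3 counts over the latter group (adjusted p 0.263, edgeR's quasi-likelihood test); the call was lost without A2, A3, A5 or any one of T1 to T4. NestinTK+ against NestinTK- under GCV called Pcdha9, where 2.1% of genes were called: the 12 counts in NestinTK-GCV+ mice were at least 5.03-fold above the limit for the ablated group (adjusted p 0.0900, edgeR's quasi-likelihood test), the call was lost without A4, and without G1, P1 or P2, the control libraries that admitted the gene, it failed the filter. GCV against PBS in NestinTK- mice called Pcdhga11, where 2.46% of genes were called. It had 38, 31 and 55 counts against 13, 20 and 18, a log2 fold change of 1.39 ± 0.44 with an adjusted p of 0.101 in the same test. The call was lost without G1, G3 or P1, and Pcdhga11 was at 0.51 ± 0.38 for GCV against PBS in NestinTK+ mice. The transgene under PBS (0.83% of genes called) and the interaction (3.28%) called no member in edgeR's quasi-likelihood test and 0 with DESeq2. Each had 2 members at an unadjusted p under 0.05 in edgeR's test. The share of all genes at that p is not given here, so these counts are a description.

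Mouse T4 of the NestinTK+PBS+ group had the lowest gamma A and B sum in each tissue. This was noticed in the values, and neither sum was flagged by Dixon's criterion, used in a later section. In the SVZ its 11 genes Pcdha1 to Pcdha12 held 1 count in all, where the other 14 mice had 7 to 307, and its gamma A and B genes held 117 counts, where the others had 248 to 1238. After scaling the gamma A and B sum of T4 was 8.18 CPM, against 27.3 to 91.6 in the others. Its gamma C-type sum of 30.1 CPM and its beta sum of 104 CPM lay inside the ranges of the other mice, and Pcdhgc5 had 397 counts there.

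In the striatum of T4 the gamma A and B sum was again the lowest, at 16.0 CPM against 24.7 to 66.3 in the other 14 mice. Pcdhga3 had 4 counts in T4 and 18 to 65 elsewhere, and Pcdhga6 had 0 in T4 and 6 to 50 elsewhere. In the SVZ the same genes had 0 and 1 counts in T4, against 4 to 226 and 7 to 168. Not all members were low in T4: Pcdhgb1, Pcdhgb4 and Pcdha6, with at most 4 counts in any other striatum library, had 5, 4 and 5.

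Over the 38 members tested in both tissues T4 was the lowest of the 15 mice in both, ties at 0 included, in 9 (23.7%), where it was so in 2.49% of the 14197 genes tested in both; each other mouse was the lowest in 0 to 3 members. The 9 genes were Pcdhb14, Pcdhga1, Pcdhga2, Pcdhga3, Pcdhga6, Pcdhga7, Pcdhga12, Pcdhgb6 and Pcdhgb8. All but Pcdhb14 and Pcdhga3 had 0 counts in the striatum of T4, where ties are common. In the striatum Pcdhgb8 was at 0 in 9 libraries and Pcdhga1 in 8. The 14197 genes were not matched to the members on level, so the share of 2.49% is no like measure for genes near 0. The medium spiny neuron markers of T4 were the lowest of 15 in the striatum and the third lowest in the SVZ, while its pan-neuronal markers were the highest in the striatum and the fifth lowest in the SVZ; their part was not tested. Without T4 the log2 fold change of Pcdhga12 between ablated mice and controls in the SVZ was 2.92.

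**Figure D5:**
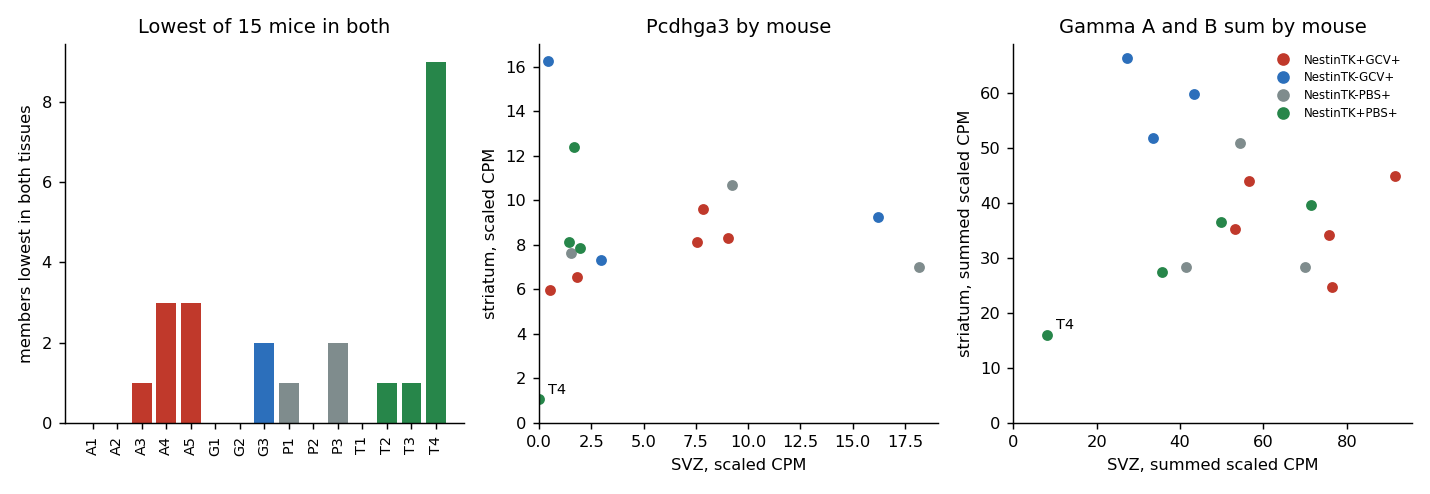
Left, number of the 38 members tested in both tissues in which a mouse was the lowest of 15 in both (ties included); centre and right, Pcdhga3 and the summed gamma A and B genes in scaled CPM, SVZ (x axis) against striatum (y axis), 1 point per mouse coloured by group. T4 is the lowest in 9 members and lies nearest the origin in both scatter plots.

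Of 14 regulators of promoter choice (CTCF, cohesin subunits and loaders, DNA methyltransferases and repressors) all were tested in the SVZ and 1 was called, where 1.59% of all genes were: Rest, a repressor of neuronal genes, at -2.43 ± 0.73 with an adjusted p of 0.347 (edgeR's quasi-likelihood test). The median of this list was -0.091 in the SVZ and -0.031 in the striatum. In the striatum 0 were called, against 0.694% of all genes. There 1 regulator had an unadjusted p under 0.05 in edgeR's quasi-likelihood test, against 10.5% of all genes. This was the cohesin subunit Rad21, at -0.25 ± 0.12. Of 16 cytoplasmic partners (FAK and PYK2 kinases, the WAVE complex and others) 0 were called in edgeR's quasi-likelihood test in either tissue, with 4 under 0.05 unadjusted in the SVZ, against 9.81% of all genes, and 1 in the striatum, against 10.5%, and medians of 0.10 and 0.023. The 1 in the striatum was Marcks, an actin-binding protein kinase C substrate, at 0.52 ± 0.15 with an adjusted p of 0.166. Of the 12 non-clustered protocadherins 11 were tested in each tissue and 0 were called or under 0.05 unadjusted, with medians of 0.33 in the SVZ, where 10 of 11 were higher against 48.1% of all genes, and 0.097 in the striatum.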

How the data were processed

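RNA-seq libraries of SVZ (SMART-Seq v4) and striatum (QuantSeq 3′ FWD) from 15 mice were analysed from the raw gene counts the authors deposited. Per the submitters' processing notes the authors used Trimmomatic 0.36, STAR 2.5.3a, featureCounts and mm10; the strand setting is not given in the sources used here. From these counts, TMM-scaled CPM were computed. Within a tissue, genes exceeding 1 CPM in 3 or more of its libraries were tested with edgeR 4.0.16 (quasi-likelihood test, Benjamini-Hochberg adjustment over all genes tested), each tissue apart, in a fit of ablated against control mice and a fit of 4 groups; the SE is the log2 fold change divided by the square root of F. A gene was called at p of at most 0.01 and at least 2-fold. Alternatives used DESeq2 1.42.0, limma 3.58.1 (voom), other scaling, filters and controls, a covariate for the series of mouse numbers, and left out each library in turn. Named members were the C-type genes, the 3 highest by mean CPM per cluster and tissue, every called member and the 3 with the lowest p per tissue; other members, and the account of T4, were chosen after their values were seen. The members and lists were chosen with earlier results of these data known. Exon sharing came from GENCODE vM21, where 57 symbols matched; the authors' annotation was another release. The fits were tested on simulated data. Limits cover counting error only, and p-values measure the spread between these mice.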

Additional observations from a re-analysis of the deposited data

Results flagged for a closer look

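Of 126 sets of 4 to 10 libraries examined (a member or cluster sum in one group or in the 10 controls), 9 held a library far from the others by Dixon's criterion, where chance gives about 1 in 20 sets. That rate is for independent sets of normal values. The sets here share libraries and some values sit at no count, so the 9 are given as a description. The gamma A and B sums were examined in both tissues and none was flagged. T4 accounted for 4 of the 9 flagged sets, as the lowest library. Its log2 CPM was 1.039 for Pcdhb14 in the SVZ and 2.853 in the striatum among the 10 controls. For Pcdhga3 it was -2.572 in the SVZ among the NestinTK+PBS+ mice and 0.694 in the striatum among the 10 controls. In the SVZ P3 had the lowest Pcdhb19 of the 10 controls, at a log2 CPM of 1.547, and the highest gamma sum, at 166.932 scaled CPM. G3 had the lowest Pcdhgc3 of the controls, at -2.035. A3 had the highest Pcdhb21 of the ablated mice, at 4.626, and T1 the highest Pcdha1 of the NestinTK+PBS+ mice, at 0.755, where the other mice of that group had no count.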

How the results depend on the processing

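In the SVZ the 1 member called between ablated mice and controls became 2 with NestinTK+PBS+ mice as the only controls or with the mouse number series as a covariate, and 0 at an adjusted p under 0.05, and it was 1 to 1 when single libraries were left out. For GCV against PBS in NestinTK+ mice 1 became 2 without a filter and 4 with DESeq2 (0 to 2 leaving out single libraries). For NestinTK+ against NestinTK- under GCV 1 became 0 without a filter and 2 with DESeq2 (0 to 1), and for GCV against PBS in NestinTK- mice 0 with limma-voom and 2 with DESeq2 (0 to 2). The interaction went from 0 to 1 with RLE size factors, 1 without a filter and 3 with DESeq2 (0 to 2), and the transgene under PBS was 0 to 1. In the striatum the 1 member called between ablated mice and controls became 2 without a filter or with NestinTK-GCV+ mice as the only controls, and 0 with the filter at 8 libraries, limma-voom, NestinTK+PBS+ mice as the only controls, the covariate or an adjusted p under 0.05 (0 to 1). For GCV against PBS in NestinTK+ mice it became 0 with limma-voom (0 to 1), and for NestinTK+ against NestinTK- under GCV 2 without a filter (0 to 2). The other 3 striatal contrasts ran from 0 to 1. The cause of these shifts was not tested. Shares of all genes called under these alternatives are not given here, so the changed counts describe the members only. The log2 ratios of the cluster sums kept their sign under every alternative run for them. Those alternatives did not include NestinTK+PBS+ or NestinTK-PBS+ mice as the only controls. Of 235 alternative values of named members 197 kept their side of the call rule, 38 lost the call and 0 changed sign. The striatal alpha genes rested on 5 to 27 counts per library. The labels tie the SVZ and striatum libraries of a mouse, and the tissues were tested apart. Within a tissue no paired analysis was possible, because the groups compared hold different mice and no label pairs mice across groups. A comparison across tissues paired by mouse was not run.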
